A study of Homo sapiens with 27 samples.

Results

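Semaphorins, plexins, ephrins and Eph receptors, ligands and receptors of cell guidance, were followed through MAPK pathway inhibition and loss of TADA2B in melanoma cells. The members are all protein-coding genes whose GENCODE symbol starts with SEMA, PLXN, EFNA or EFNB, or with EPHA or EPHB and a number. Only symbols, and no measured value, enter that rule, but it was chosen with earlier results of these data known. The rule gave 51 of the 58721 genes in the count table: 20 semaphorins, 9 plexins, 8 ephrins and 14 Eph receptors.

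RNA was sequenced from A375, an established human melanoma line that carries an activating BRAF mutation, in 27 libraries. All libraries came from cells whose titles name a guide RNA, and 3 cell populations were each given 3 treatments for 24 h, which makes 9 groups of 3 libraries. Control cells carried a guide against GFP, a gene that human cells lack, and their genotype is labelled WT. The knockout populations carried guide 1 or guide 2 against TADA2B, a subunit of the histone acetyltransferase complex SAGA. Treatments were DMSO, 20 nM of the MEK inhibitor trametinib, and 1 µM of vemurafenib, an inhibitor of mutant BRAF. The title of the study concerns epigenetic control of melanoma cell plasticity and of resistance to therapy. The labels do not say whether a guide population was a clone or a pool, nor whether the 3 libraries in a group were grown apart, so p-values reflect library-to-library spread that may be technical in part.

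Semaphorins are secreted or membrane-bound ligands that bind plexins, and most secreted class 3 semaphorins do so together with the co-receptors neuropilin 1 and neuropilin 2. Plexins carry a GTPase-activating domain inside the cell that acts on small G proteins of the Ras and Rap kind, and they change adhesion and the cytoskeleton. Ephrins are ligands tethered to the membrane, A-type by a lipid anchor and B-type by a transmembrane segment, and Eph receptors are the largest family of receptor tyrosine kinases. Contact between cells sets off signals in both the Eph-bearing and the ephrin-bearing cell. Both systems steer neural crest cells, from which melanocytes arise, and EPHA2 is a known receptor of melanoma cells.

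The promoters of 46 of the 51 members were found in the RefSeq table used here (GRCh38.p14, 250 bases before to 50 bases after the start site listed there). That site can differ from the gene start in GENCODE. The windows of SEMA3C and EPHA5, for example, lie inside the gene, so a window need not be the promoter at the GENCODE start. They were searched on both strands for the AP-1 letters TGANTCA, the E-box letters CACGTG or CATGTG that MITF can bind, the ETS letters CCGGAAG and the CRE letters TGACGTCA. No member promoter held the AP-1 letters, against 7.71% of all 35116 promoters, and 1 held the ETS letters (2.2%, against 10.26% of all). The E-box letters were in 7 member promoters (15.2%, against 17.62% of all), and the CRE letters in 2 (4.3%, against 1.85% of all). Member promoters were rich in G and C, with a median of 66.2% against 58.7% over all promoters. These matches describe letters in a window, not bound sites.

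The promoters of 4 members are shown because these members stand for the main patterns of the data. EPHA2 fell with both drugs in control and knockout cells, EFNA5 fell with both drugs but less after knockout, SEMA3C rose with both drugs but less after knockout, and EPHA5 rose with both drugs and with the knockout. Positions on GRCh38.p14 are chr1:16156020-16156319, minus strand for EPHA2, chr5:107670888-107671187, minus strand for EFNA5, chr7:80919002-80919301, minus strand for SEMA3C and chr4:65669439-65669738, minus strand for EPHA5. Each sequence runs 5′ to 3′ on the strand of the gene, and capitals mark a motif match. Here these are the CRE letters of EPHA2, whose first base lies at -51 from the listed start site. The other sequences held no match.
EPHA2: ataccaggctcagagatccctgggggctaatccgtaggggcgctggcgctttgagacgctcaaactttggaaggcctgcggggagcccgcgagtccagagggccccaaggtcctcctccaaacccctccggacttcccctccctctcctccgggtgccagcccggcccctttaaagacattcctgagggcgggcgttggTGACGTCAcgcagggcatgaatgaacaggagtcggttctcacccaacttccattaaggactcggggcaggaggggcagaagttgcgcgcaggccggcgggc
EFNA5: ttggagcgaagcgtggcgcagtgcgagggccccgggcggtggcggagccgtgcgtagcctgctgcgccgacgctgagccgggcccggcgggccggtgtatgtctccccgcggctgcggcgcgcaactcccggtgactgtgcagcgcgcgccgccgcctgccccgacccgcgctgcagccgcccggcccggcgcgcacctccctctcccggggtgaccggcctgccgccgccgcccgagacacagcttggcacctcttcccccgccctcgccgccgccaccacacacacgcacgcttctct
SEMA3C: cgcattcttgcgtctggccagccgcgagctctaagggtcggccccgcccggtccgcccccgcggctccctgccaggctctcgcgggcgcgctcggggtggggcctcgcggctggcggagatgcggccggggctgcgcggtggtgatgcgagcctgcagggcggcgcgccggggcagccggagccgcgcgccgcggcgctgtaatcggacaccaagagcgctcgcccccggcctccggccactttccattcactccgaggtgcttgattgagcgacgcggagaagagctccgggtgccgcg
EPHA5: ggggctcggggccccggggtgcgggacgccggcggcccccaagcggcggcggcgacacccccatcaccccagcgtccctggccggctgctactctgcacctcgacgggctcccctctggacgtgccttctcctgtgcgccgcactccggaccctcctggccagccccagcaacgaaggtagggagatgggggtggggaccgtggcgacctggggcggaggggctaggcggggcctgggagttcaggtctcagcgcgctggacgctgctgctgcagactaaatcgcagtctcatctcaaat

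Library totals lay between 67502300 and 92513726 counts. Melanocyte lineage markers were uneven in control cells in DMSO: SOX10 averaged 884 CPM (counts relative to the library total, scaled with TMM factors) and MITF 79.1 CPM, whereas TYR averaged 0.00432 CPM and MLANA 0.748 CPM. Of markers of other cell types, KRT1 was at 0 in all 27 libraries and DSG3 and CD3E never exceeded 0.0889 CPM. Others in the same lists were not low: over all libraries KRT10 held 37.4 to 55.1 CPM, KRT14 3.32 to 15.0 and LYZ 4.55 to 35.8. A count of 0 allows up to 3 counts, or 0.0307 to 0.0447 CPM depending on the library, for counting error only. TADA2B itself averaged 31.2 CPM in control cells in DMSO, and 30.4 (guide 1) and 28.6 (guide 2) after knockout (-0.08 ± 0.0371 on the log2 scale, adjusted p = 0.063). With trametinib it averaged 41.3, 34.9 and 29.3 CPM in the same order (log2 -0.37 ± 0.0356, adjusted p = 1.2e-12), and with vemurafenib 43.8, 32.6 and 28.5 (log2 -0.52 ± 0.0356, adjusted p = 1.0e-17), so its RNA was lower in knockout cells with each drug. An edited gene can still be transcribed, so these levels alone do not check the knockout labels. DUSP6, a phosphatase gene that ERK activity induces, averaged 147 CPM in control cells in DMSO, 1.05 with trametinib and 13.8 with vemurafenib. Replicates were tight (common biological coefficient of variation 4.02%), so small changes passed the test and a call alone is common. In bulk RNA, fewer cells of a type and less RNA per cell cannot be told apart.

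A375 cells transcribed most of the guidance repertoire. Of the 51 members, 48 passed the filter on low counts and were tested, and 43 of these lay over the filter level of 0.126 CPM on average in all 9 groups. Of the 5 other tested members, EPHA5 lay over that level in 8 groups, PLXNA4 in 7, EPHA1 in 5, SEMA4A in 3 and EPHA10, which passed through single libraries, in 0. EFNA2, EPHA8 and SEMA5B did not pass, with at most 13, 9 and 3 counts in any library. Tested members were more abundant than most genes, with a median average level of 4.26 log2-CPM against 2.05 for all 25199 genes tested, and abundant genes are called more easily.

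Levels were set side by side between genes after division by the length of each gene's exons. In control cells in DMSO the most abundant members were EPHA2 with a mean of 51.7 CPM per kb (range 49.4 to 53.2 over 3 libraries), the secreted ligand SEMA3B with 32.7 (32.2 to 33.2), PLXNB2 with 25.5 (25.0 to 26.1), the transmembrane ligand SEMA6B with 25.4 (23.7 to 26.8), EPHA3 with 22.9 (22.7 to 23.2) and SEMA3C with 16.8 (16.6 to 17.0). The ranges of PLXNB2 and SEMA6B overlapped, as did those of EPHB4 (13.2) and SEMA7A (12.9), whereas EPHA2 stood apart from SEMA3B. The leading ephrins were EFNA1 with 7.47 and EFNA4 with 6.29, and EFNB3 (4.49) and EFNB2 (4.46) overlapped in range. At the low end EPHB6 had 0.0316, EPHA5 0.0119, PLXNA4 0.0105 and EPHA10 5.67e-04, and SEMA5B had no counts in these libraries.

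**Figure D1:**
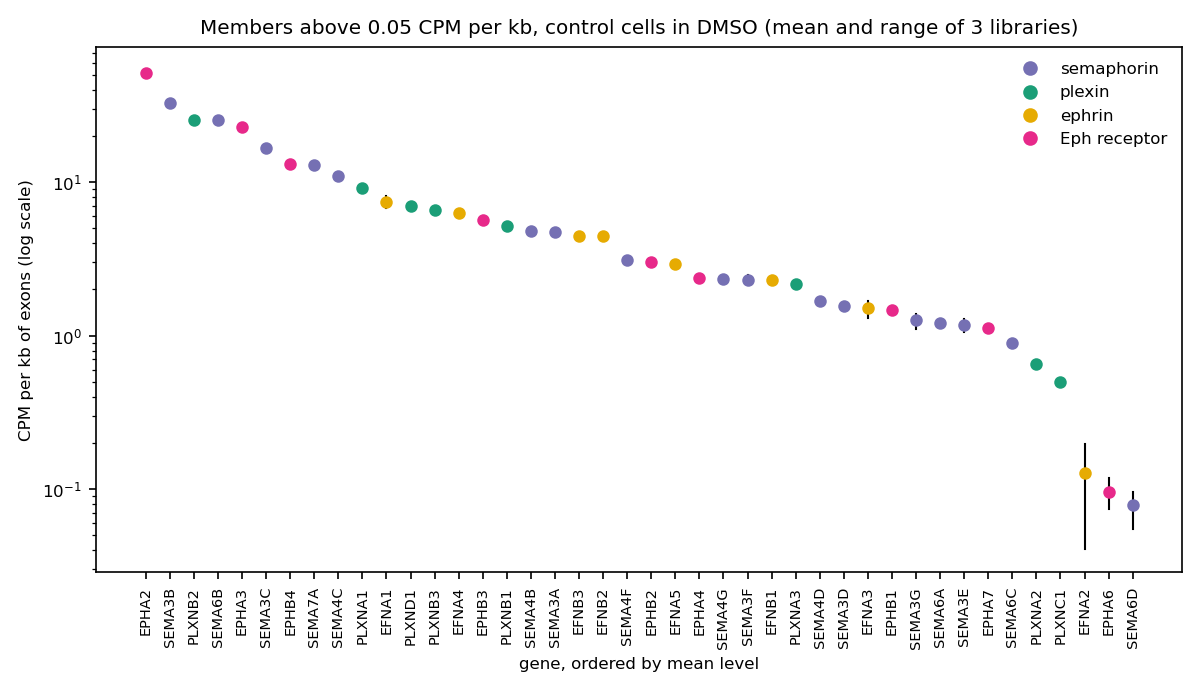
Level of members in control cells in DMSO, in CPM per kb of exons on a log axis, ordered by mean; points are means of 3 libraries, lines their range, and colours the families. The 42 members above 0.05 CPM per kb are shown, and EPHA2 leads at 51.7.

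The families moved in different directions with drug. The summed level of the 20 semaphorins in control cells went from 717 CPM ± 10.8 (SD, n = 3) in DMSO to 1760 ± 32.6 with trametinib and 1570 ± 15.0 with vemurafenib, and SEMA3C alone made up 881 and 730 CPM of the last sums. That of the 9 plexins went from 489 ± 5.39 to 738 ± 28.8 and 703 ± 26.4, and that of the 8 ephrins from 91.1 ± 1.43 to 147 ± 3.63 and 138 ± 0.729. The sum of the 14 Eph receptors went the other way, from 554 ± 15.7 to 269 ± 6.28 and 322 ± 2.76, and EPHA2 accounted for most of that. Drug and DMSO libraries did not overlap in any of these sums. In the knockout populations the semaphorin sum started at 788 ± 5.83 with guide 1 and 688 ± 7.31 with guide 2 in DMSO and reached 1290 ± 15.1 and 1070 ± 1.43 with trametinib, below the sums of control cells with the drug. Sums weigh abundant and long genes most and were not tested.

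**Figure D2:**
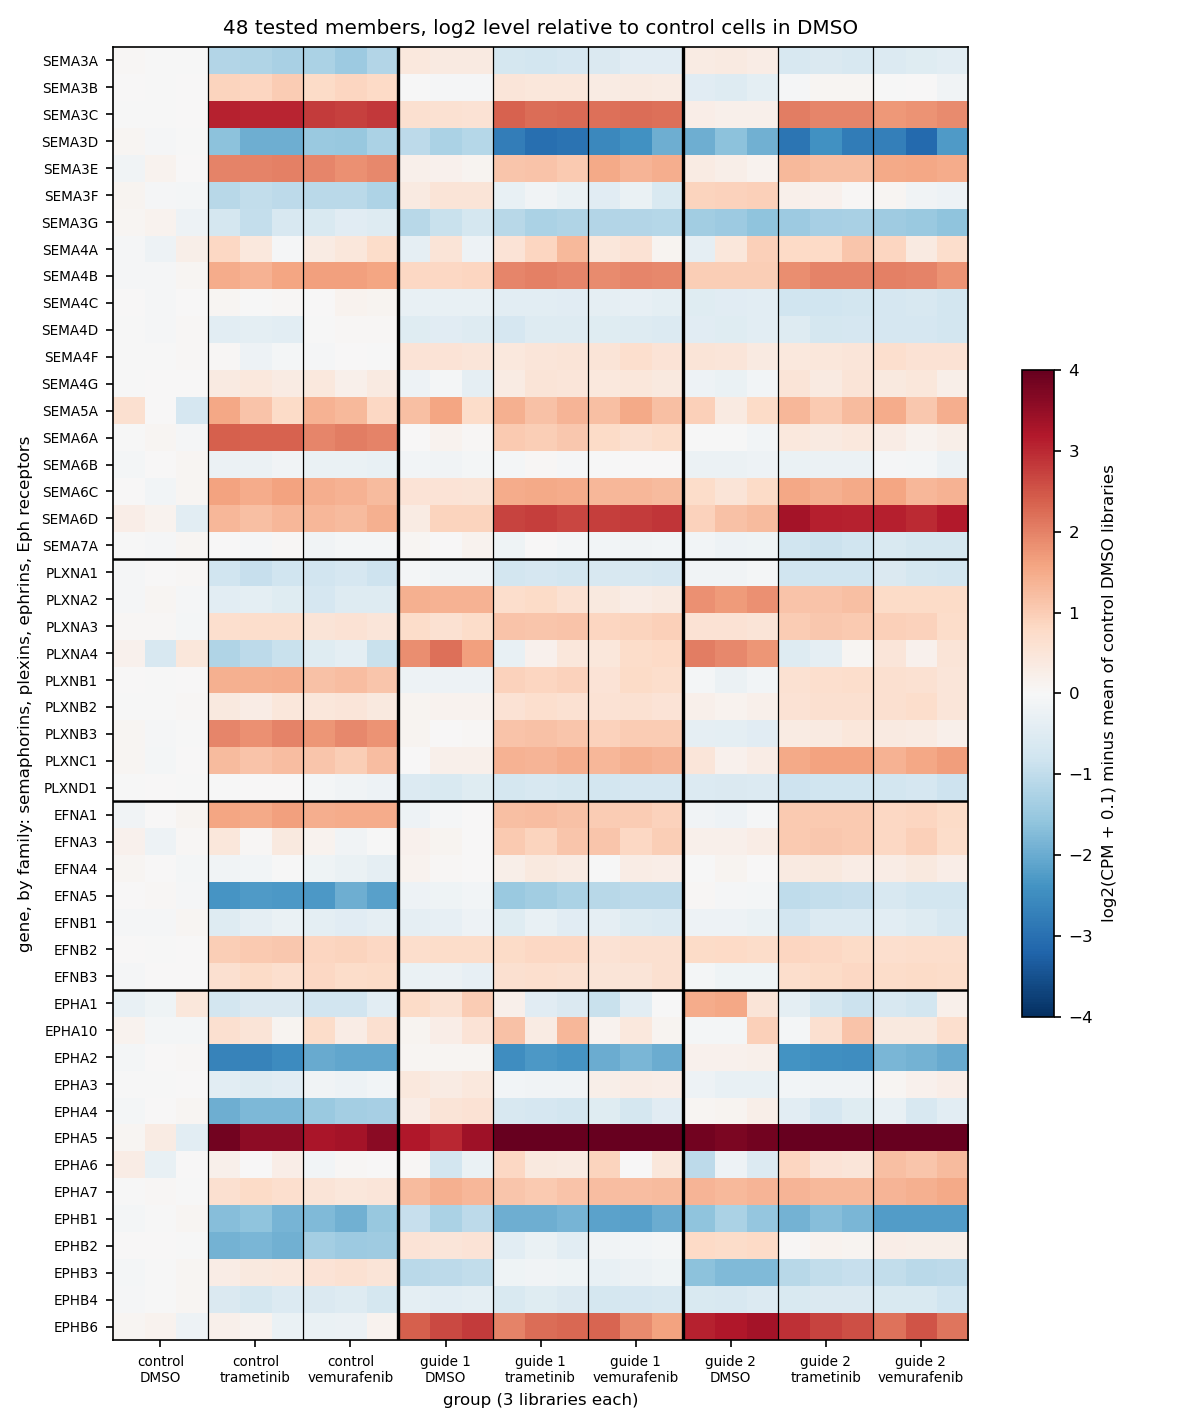
Level of the 48 tested members (rows, by family) in each of the 27 libraries (columns, by group), as log2(CPM + 0.1) minus the mean of the control DMSO libraries, red for higher and blue for lower, with colours cut at 4. The libraries of a group look alike, EPHA2 is blue in all drug groups, and EPHA5 is red outside control cells in DMSO.

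Trametinib in control cells changed most members, in both directions. It raised 21 of 48 tested members (43.8%, against 36.4% of all genes tested) and lowered 18 (37.5%, against 32.5%), and the median log2 change was 0.11 against 0.06 over all genes. By family, 9 of 19 semaphorins rose and 6 fell, 5 of 9 plexins rose and 3 fell, 4 of 7 ephrins rose and 2 fell, and 3 of 13 Eph receptors rose and 7 fell. Calls throughout are at an adjusted p under 0.05 from edgeR's quasi-likelihood test, with the adjustment over all 25199 genes. Vemurafenib in control cells raised 22 members (45.8%, against 35.7%) and lowered 20 (41.7%, against 31.6%). Both drug contrasts use the same DMSO libraries, so the values of each are given side by side. Members named for the size of a change average at least 1 log2-CPM over all libraries, and the libraries of the groups compared do not overlap.

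Among secreted ligands, SEMA3C (ENSG00000075223, chromosome 7, 80742538 to 80922359, minus strand, hg38), a class 3 semaphorin that signals through neuropilins, rose 8.36-fold with trametinib. Its control libraries held 105, 104 and 107 CPM in DMSO, 894, 872 and 876 with trametinib and 740, 702 and 747 with vemurafenib, with no overlap between DMSO and either drug (log2 3.06 ± 0.0360, adjusted p = 4.4e-49 for trametinib and log2 2.79 ± 0.0357, adjusted p = 1.9e-47 for vemurafenib). SEMA3E (ENSG00000170381, chromosome 7, 83363238 to 83649113, minus strand), a ligand of plexin D1, also rose, from 8.81, 10.8 and 9.80 CPM to 39.1, 38.8 and 39.6 with trametinib (log2 2.00 ± 0.0582, adjusted p = 1.1e-32) and 38.3, 35.2 and 37.7 with vemurafenib (log2 1.92 ± 0.0583, adjusted p = 7.2e-32). SEMA3B, the most abundant semaphorin per length in DMSO, rose less, from a mean of 189 CPM to 358 and 332.

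Other class 3 ligands fell with the same drugs. SEMA3D (ENSG00000153993, chromosome 7, 84995553 to 85186855, minus strand) went from 13.4, 12.2 and 12.4 CPM in DMSO to 3.99, 3.2 and 3.19 with trametinib (log2 -1.87 ± 0.143, adjusted p = 6.5e-14) and 4.45, 4.39 and 5.26 with vemurafenib (log2 -1.43 ± 0.139, adjusted p = 3.2e-11). SEMA3A, the founding growth cone repellent, which lies between SEMA3E and SEMA3D on that chromosome, fell from a mean of 44.5 CPM to 18.9 with trametinib and 18.0 with vemurafenib (log2 -1.23 ± 0.05 and -1.30 ± 0.0504). On chromosome 3, SEMA3F fell from 11.1 CPM to 5.34 and 5.01, whereas SEMA3B, which lies close by, rose. SEMA3G, a ligand of neuropilin 2, fell from 6.37 CPM to 3.73 and 4.37. So 3 of the 7 class 3 genes rose and 4 fell with each drug, and genes that lie close to each other moved in different directions.

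Membrane-bound semaphorins mostly rose or barely moved. SEMA6A (ENSG00000092421, chromosome 5, 116443616 to 116574934, minus strand), a ligand of A-type plexins, rose 5.16-fold with trametinib, from 13.1, 14.0 and 12.7 CPM to 69.5, 68.7 and 67.7 (log2 2.37 ± 0.0492, adjusted p = 7.9e-39), and reached 51.3, 54.7 and 53.2 with vemurafenib (log2 2.00 ± 0.0493, adjusted p = 1.2e-35). SEMA4B rose from a mean of 33.8 CPM to 94.8 with trametinib and 104 with vemurafenib, and SEMA6C from 5.20 to 15.6 and 13.6. SEMA6D rose from 0.677 to 1.76 and 1.83 CPM. By contrast the abundant SEMA6B fell slightly, from 112 to 97.2 and 92.4, and SEMA7A, which is held by a lipid anchor, stood at 49.1 CPM in DMSO and 49.3 with trametinib (0.01 ± 0.0430 on the log2 scale, adjusted p = 0.93). SEMA4D, the ligand of plexin B1, fell with trametinib, from 23.9 to 18.0 CPM, and stood at 24.3 with vemurafenib.

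Of the receptors for semaphorins, B-type plexins rose with both drugs. PLXNB3 (ENSG00000198753, chromosome X, 153764196 to 153779346, plus strand) held 48.5, 44.6 and 45.9 CPM in DMSO, 179, 165 and 183 with trametinib (log2 1.92 ± 0.0443, adjusted p = 8.2e-35) and 159, 177 and 160 with vemurafenib (log2 1.84 ± 0.0443, adjusted p = 5.8e-34). All drug libraries lay above all DMSO libraries. About 20.4% of its exon bases are shared with SRPK3 on the same strand, so position alone cannot assign reads that lie there, and its count is less certain. PLXNB1 rose from a mean of 50.4 CPM to 136 and 114, PLXNB2 from 185 to 242 and 249, and PLXNC1, the receptor of SEMA7A, from 4.93 to 11.6 and 10.8. A-type plexins differed among themselves. PLXNA1 fell from 99.9 CPM to 55.9 and 59.3 and PLXNA2 from 9.03 to 6.70 and 6.07, whereas PLXNA3 rose from 25.5 to 41.3 and 36.8. PLXND1, the receptor of SEMA3E, stood at 67.8 CPM in DMSO and 68.0 with trametinib (0.00 ± 0.0372 on the log2 scale, adjusted p = 0.93), and fell slightly with vemurafenib, to 61.0.

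The ephrins split as well. EFNA5 (ENSG00000184349, chromosome 5, 107376889 to 107670895, minus strand), an A-type ligand, fell 5.09-fold with trametinib: its control libraries held 16.8, 17.3 and 16.1 CPM in DMSO, 3.18, 3.42 and 3.29 with trametinib (log2 -2.35 ± 0.0754, adjusted p = 5.9e-31) and 3.32, 4.21 and 3.65 with vemurafenib (log2 -2.17 ± 0.0745, adjusted p = 9.2e-30). EFNA1, the A-type ligand best known for binding EPHA2, rose from 17.3, 19.0 and 20.6 CPM to 57.2, 53.9 and 59.0 with trametinib and 52.4, 53.5 and 53.5 with vemurafenib. It had the largest rise of the ephrins with each drug. EFNB2, the B-type ligand of EPHB4, rose from 22.7, 22.1 and 22.5 CPM to 44.8, 46.8 and 47.3 with trametinib and 40.9, 41.4 and 40.1 with vemurafenib, and EFNB3 from a mean of 14.5 to 23.5 and 24.8. An antisense gene overlaps 26.2% of the EFNB2 exon bases, and EFNA3 and EFNA4 share 44.7% and 15.0% of theirs with a readthrough gene on the same strand, so their counts are less certain.

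Eph receptors mostly fell. EPHA2 (ENSG00000142627, chromosome 1, 16124337 to 16156087, minus strand) had the largest fall with trametinib of all members that average at least 1 log2-CPM. Its control libraries held 205, 219 and 221 CPM in DMSO, 33.4, 33.7 and 37.2 with trametinib and 53.5, 50.4 and 50.6 with vemurafenib, a 6.19-fold fall with trametinib (log2 -2.63 ± 0.0488, adjusted p = 4.2e-34) and a 4.17-fold fall with vemurafenib (log2 -2.06 ± 0.0472, adjusted p = 5.2e-31). EPHB2 (ENSG00000133216, chromosome 1, 22710839 to 22921500, plus strand) fell from 37.7, 37.9 and 37.0 CPM to 10.1, 10.5 and 9.84 with trametinib (log2 -1.88 ± 0.0464, adjusted p = 8.9e-36) and 14.5, 13.6 and 14.0 with vemurafenib (log2 -1.42 ± 0.0448, adjusted p = 3.3e-31). EPHA4, which binds both kinds of ephrin, fell from 16.9, 17.9 and 18.7 CPM to 4.57, 5.02 and 5.01 with trametinib and 6.34, 6.90 and 7.01 with vemurafenib. EPHB1 fell from 9.70, 10.2 and 10.9 CPM to 3.10, 3.32 and 2.76 with trametinib and 2.92, 2.63 and 3.5 with vemurafenib. EPHB4 and EPHA3 fell less, from means of 84.9 and 153 CPM to 55.7 and 110 with trametinib.

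EPHA5, EPHA7 and EPHB3 were the Eph receptors that rose with trametinib. EPHA5 (ENSG00000145242, chromosome 4, 65319563 to 65670495, minus strand), a receptor of the nervous system, was close to undetected in control cells in DMSO, with 9, 13 and 4 counts or 0.125, 0.169 and 0.0574 CPM. It reached 2.98, 2.42 and 2.42 CPM with trametinib (log2 4.44 ± 0.211, adjusted p = 7.0e-24) and 1.95, 2.03 and 2.49 with vemurafenib (log2 4.16 ± 0.220, adjusted p = 5.1e-22). The libraries of the groups were far apart, but a fold against so few counts is imprecise. EPHA7 rose from a mean of 8.41 CPM to 13.7 and 11.8, and EPHB3 from 25.8 to 33.3 and 37.8.

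**Figure D3:**
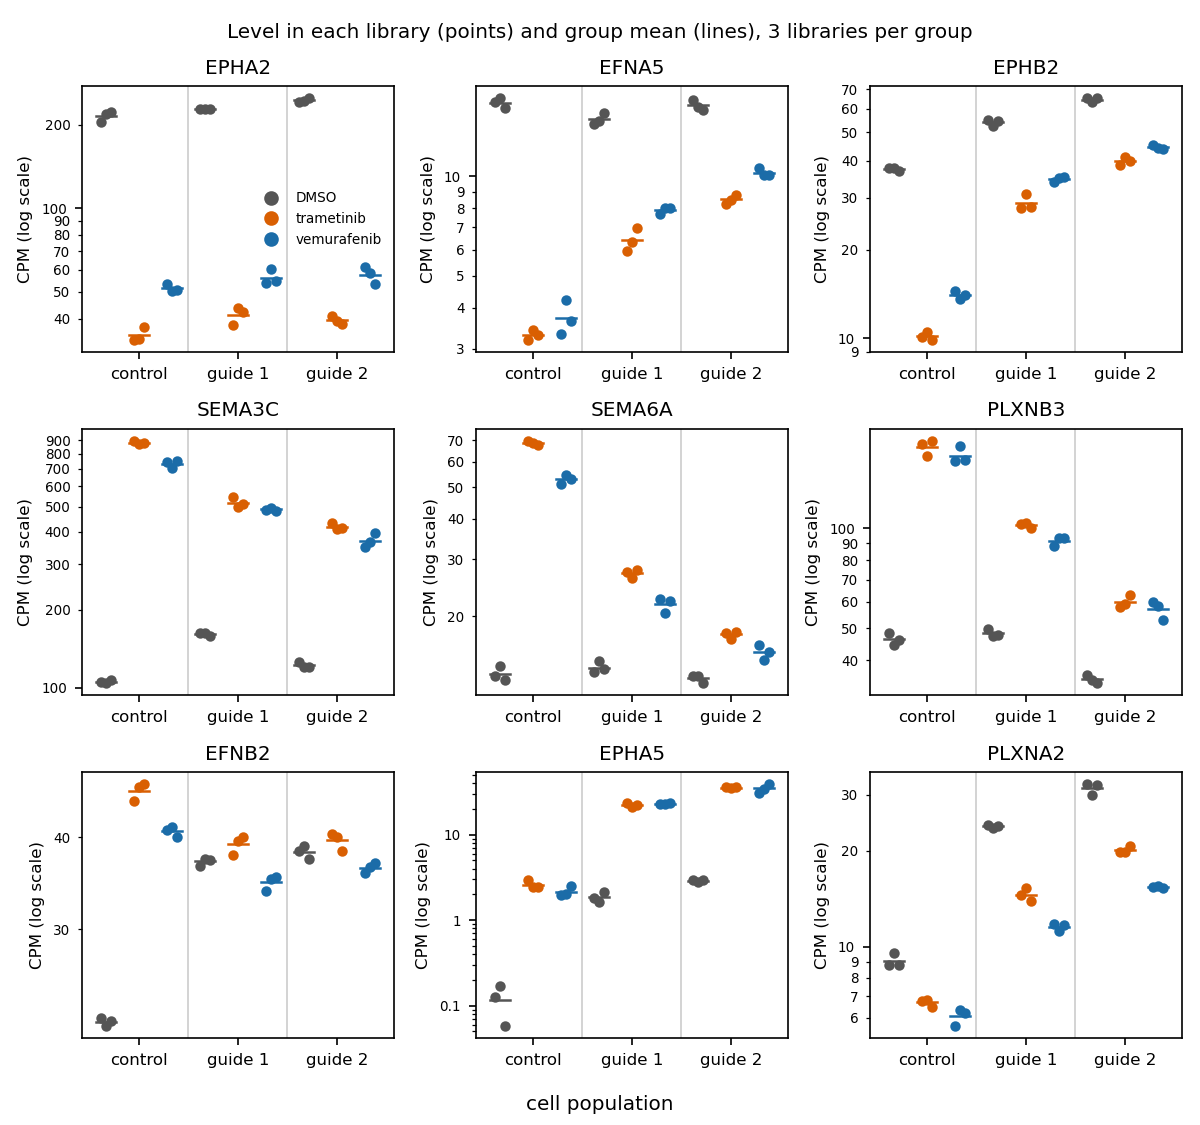
Level of 9 members in every library, in CPM on a log axis, by cell population and treatment; points are libraries and short lines group means. EPHA2 drops with drug in all populations, SEMA3C, SEMA6A and PLXNB3 rise less in both knockout populations than in control cells, and EFNA5 and EPHB2 fall less.

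Set against each other in control cells, the drugs differed in fewer members than either did from DMSO. The level with vemurafenib was above that with trametinib for 8 members (background 8.78%) and below it for 10 (background 7.56%). The members above it were led by receptors that had fallen: EPHA2 (log2 difference vemurafenib minus trametinib 0.57 ± 0.0492), EPHA4 (0.47 ± 0.0889) and EPHB2 (0.47 ± 0.0495), followed by SEMA3D (0.44 ± 0.150, adjusted p = 0.039) and SEMA4D (0.44 ± 0.0523). Below it were SEMA6A (-0.37 ± 0.0440), SEMA3C (-0.27 ± 0.0328), PLXNB1 (-0.26 ± 0.0401), EPHA7 (-0.22 ± 0.0565) and SEMA6C (-0.20 ± 0.0661, adjusted p = 0.033). At these doses vemurafenib left 13.8 CPM of DUSP6 and trametinib 1.05; whether this difference bears on the members was not tested. The count above fell to 5 without replicate 2 of control cells with vemurafenib, and the calls of SEMA3D and SEMA6C were lost when some single libraries were left out.

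Most members also changed with drug in knockout cells, taken as the mean of both guides. Trametinib raised 23 of 48 (background 37.2%) and lowered 20 (background 34.3%), and vemurafenib raised 24 (background 36.0%) and lowered 20 (background 33.1%). With trametinib 19 members rose in control and knockout cells (39.6%, against 28.4% of all genes tested) and 15 fell in both (31.2%, against 26.5%). EPHA3 is counted among the latter, although with the guides taken alone it fell with guide 1 (-0.52) and rose with guide 2 (0.12). EPHA7 alone was called in opposite directions (3.93% of all genes were), rising in control cells (0.71 ± 0.0589) and falling in knockout cells (-0.13 ± 0.0372), and that fall rests on guide 1 (-0.23), since guide 2 alone was not called (-0.02). With vemurafenib 18 rose in both (37.5%, against 27.3%) and 16 fell in both (33.3%, against 25.5%). EFNA4, EFNB2, EPHA3, SEMA4C and SEMA6B were called in opposite directions (10.4%, against 3.49%), none of them past 0.87 ± 0.0396 on the log2 scale on either side. Of these 5, only SEMA6B was called in the knockout direction with each guide: EFNB2 was called with guide 1 and not guide 2, EFNA4 and SEMA4C with guide 2 and not guide 1, and EPHA3 fell with guide 1 (-0.12) and rose with guide 2 (0.43).

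Under the same limits on naming, the largest rises in knockout cells with trametinib were those of EPHA5 (3.59 ± 0.0623), SEMA6D (2.10 ± 0.0903), SEMA3C (1.73 ± 0.0243), PLXNC1 (1.28 ± 0.0547) and EFNA1 (1.23 ± 0.0353), each as a log2 change. The largest falls were those of EPHA2 (-2.55 ± 0.0340), SEMA3D (-1.36 ± 0.115), EFNA5 (-1.08 ± 0.0483), SEMA3A (-1.03 ± 0.0339) and EPHA4 (-0.92 ± 0.0522). With vemurafenib the rises were led by EPHA5 (3.61 ± 0.0625), SEMA6D (2.10 ± 0.0907), SEMA3C (1.6 ± 0.0242), SEMA3E (1.29 ± 0.0409) and PLXNC1 (1.24 ± 0.0550), and the falls by EPHA2 (-2.05 ± 0.0332), PLXNA2 (-1.04 ± 0.0383), SEMA3F (-0.97 ± 0.0535), EPHB1 (-0.92 ± 0.0821) and SEMA3A (-0.85 ± 0.0337). SEMA6D, a ligand of plexin A1, held 0.866, 1.30 and 1.32 CPM with guide 1 in DMSO and 4.85, 5.13 and 4.72 with trametinib, and with guide 2 it went from 1.34, 1.6 and 1.73 to 7.59, 6.47 and 6.30. Its drug libraries lay above all of its DMSO libraries with either guide. EPHA5 and SEMA6D passed the naming level chiefly through the knockout groups with drug, so their place in these rankings depended on the rise ranked.

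In knockout cells the level with vemurafenib was above that with trametinib for 13 members (background 10.9%) and below it for 12 (background 8.29%). EPHA2 (0.50 ± 0.0341 on the log2 scale) led the first group, with EPHA3 (0.35 ± 0.0248), SEMA3E (0.32 ± 0.0382) and SEMA4F (0.14 ± 0.0354), and EPHB1 (-0.30 ± 0.0846) the second, with EFNA1 (-0.22 ± 0.0334), PLXNA3 (-0.19 ± 0.0307), EFNB2 (-0.15 ± 0.0269) and EPHB4 (-0.11 ± 0.0321). These counts depended on the guide: with guide 1 alone 7 members were above, with guide 2 alone 7 were below, and without replicate 1 of guide 2 with vemurafenib 8 were above.

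Guidance genes differed between knockout and control cells without any drug. In DMSO 22 of 48 members were higher in knockout cells (45.8%, background 29.3%) and 17 lower (35.4%, background 28.6%). With trametinib 22 were higher (45.8%, background 27.1%) and 15 lower (31.2%, background 28.8%), and with vemurafenib 23 were higher (47.9%, background 27.3%) and 17 lower (35.4%, background 28.3%). The shares of lower members were close to the background. Eph receptors were mostly higher, 7, 8 and 8 of 13 in DMSO, trametinib and vemurafenib, against 3, 1 and 2 lower. Of 19 semaphorins, 9, 5 and 6 were higher and 7, 9 and 9 lower, in the same order. Of the called members, 6 of 39 in DMSO (15.4%, against 21.6% of all genes called), 3 of 37 with trametinib (8.11%, against 23.3%) and 3 of 40 with vemurafenib (7.5%, against 22.1%) were not called in that direction with each guide alone. Both guides enter the mean and share the control libraries, so these counts are a limit and no separate support.

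The 3 treatments share no libraries but use the same 3 cell populations. Across them 16 members were higher in knockout cells each time (33.3%, against 14.4% of all genes tested) and 10 were lower each time (20.8%, against 14.1%). The first are EPHA2, EPHA4, EPHA5, EPHA7, EPHB2, EPHB6, PLXNA2, PLXNA3, PLXNA4, PLXNB2, PLXNC1, SEMA3A, SEMA3F, SEMA4B, SEMA4F and SEMA6D. The second are EFNA1, EPHB3, PLXNB1, PLXNB3, PLXND1, SEMA3B, SEMA3D, SEMA3G, SEMA4C and SEMA4D. These calls are on the mean of both guides. With guide 1 in DMSO, PLXNB3 averaged 48.2 CPM against 46.3 in control cells, and SEMA3B 184 against 189. EFNA1 averaged 18.0 against 19.0 there, and PLXNC1 5.45 against 4.93. For each of these genes the guide 1 and control libraries overlapped, and for EFNA1 the guide 2 libraries did too. With vemurafenib, the guide 2 libraries of EPHA2 (53.4 to 61.1 CPM) overlapped those of control cells (50.4 to 53.5). EFNB2, PLXNA1, SEMA3C, SEMA3E and SEMA6B were called in all treatments but not in 1 direction.

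EPHA5 was the member with the largest knockout effect that averages at least 1 log2-CPM. Its average of 3.81 log2-CPM rests chiefly on the knockout groups with drug, so passing that level depended on the effect ranked here. The same holds of SEMA6D (1.78 log2-CPM), with control means of 0.677, 1.76 and 1.83 CPM in DMSO, trametinib and vemurafenib. For EPHA5 the values were as follows. In DMSO EPHA5 went from 0.125, 0.169 and 0.0574 CPM in control cells to 1.84, 1.63 and 2.12 with guide 1 and 2.95, 2.80 and 2.95 with guide 2 (log2 4.27 ± 0.201, adjusted p = 1.7e-23). With trametinib it stood at 23.2, 21.1 and 22.1 CPM with guide 1 and 36.2, 34.7 and 35.6 with guide 2, against a mean of 2.61 in control cells (log2 3.42 ± 0.0803, adjusted p = 1.0e-35). With vemurafenib the guide means were 23.1 and 34.7 CPM against 2.16 (log2 3.71 ± 0.0834, adjusted p = 1.7e-36). Knockout and control libraries did not overlap in any treatment, and guide 2 libraries lay above guide 1 libraries in each.

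Among the other Eph receptors, EPHB2 in DMSO rose from 37.7, 37.9 and 37.0 CPM in control cells to 55.1, 52.6 and 54.7 with guide 1 and 65.2, 63.1 and 65.3 with guide 2 (log2 0.65 ± 0.0360, adjusted p = 4.1e-21). With trametinib the difference was larger, 27.7, 30.9 and 27.8 CPM (guide 1) and 38.8, 41.3 and 40.1 CPM (guide 2) against 10.1, 10.5 and 9.84 (log2 1.74 ± 0.0421, adjusted p = 1.6e-35). EPHA7 was at 8.26, 8.64 and 8.32 CPM in control cells in DMSO, and 20.4, 22.8 and 21.1 (guide 1) and 21.9, 20.6 and 21.5 (guide 2) after knockout (log2 1.35 ± 0.0518, adjusted p = 4.0e-27). EPHA4 was higher chiefly with drug, at a mean of 11.1 and 12.3 CPM with trametinib against 4.87 (log2 1.26 ± 0.0754, adjusted p = 2.0e-19). Other receptors were lower. EPHB3 fell from 24.5, 25.6 and 27.2 CPM in DMSO to 12.1, 12.4 and 12.9 with guide 1 and 8.26, 7.46 and 7.55 with guide 2 (log2 -1.39 ± 0.0468, adjusted p = 1.9e-29), and EPHB1 from 9.70, 10.2 and 10.9 to 5.33, 4.19 and 4.91 (guide 1) and 3.26, 4.20 and 3.42 (guide 2), a change of log2 -1.29 ± 0.0855, adjusted p = 3.4e-18. EPHB6, a receptor with an inactive kinase domain, lies under the level set for naming and was picked out after its values were seen: it averaged 0.168 CPM in control cells in DMSO, and 1.54 (guide 1) and 2.35 (guide 2) after knockout (log2 3.48 ± 0.232, adjusted p = 4.7e-18).

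Plexins differed by type. PLXNA2 (ENSG00000076356, chromosome 1, 208022242 to 208244320, minus strand), a receptor of class 6 semaphorins, held 8.75, 9.57 and 8.77 CPM in control cells in DMSO, and 24.2, 23.6 and 23.9 (guide 1) and 32.4, 29.9 and 32.3 (guide 2) after knockout (log2 1.6 ± 0.0514, adjusted p = 2.7e-30). With trametinib it averaged 6.70, 14.6 and 20.2 CPM, and with vemurafenib 6.07, 11.6 and 15.4. Knockout libraries lay above control libraries in each treatment. PLXNB3 was lower in knockout cells mainly with drug, at 103, 104 and 100 CPM with guide 1 and 57.9, 59.2 and 62.8 with guide 2 with trametinib, against 179, 165 and 183 in control cells (log2 -1.17 ± 0.0353, adjusted p = 9.9e-30). In DMSO its guide 1 mean of 48.2 CPM was close to the control mean of 46.3, and its guide 2 mean was 35.1. PLXND1 fell in DMSO from a mean of 67.8 CPM to 46.3 and 46.1 (log2 -0.55 ± 0.0323, adjusted p = 3.9e-20).

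Among semaphorins SEMA6D was higher and SEMA3D lower in knockout cells in each treatment. SEMA6D held 0.819, 0.739 and 0.474 CPM in control cells in DMSO and averaged 1.16 with guide 1 and 1.56 with guide 2 (log2 0.98 ± 0.151, adjusted p = 2.1e-07), and with trametinib 1.76, 4.90 and 6.79 (log2 1.71 ± 0.111, adjusted p = 1.6e-18). SEMA3D fell in DMSO from 13.4, 12.2 and 12.4 CPM to 6.06, 5.18 and 5.67 with guide 1 and 3.22, 3.99 and 3.25 with guide 2 (log2 -1.51 ± 0.115, adjusted p = 1.2e-13). SEMA3G fell as well, from a mean of 6.37 CPM to 3.37 and 2.22 (log2 -1.22 ± 0.0919, adjusted p = 3.4e-16), whereas SEMA4B rose from 33.8 to 60.5 and 66.7 (log2 0.91 ± 0.0416, adjusted p = 2.6e-22). SEMA6A stood at 13.3, 13.9 and 12.9 CPM in DMSO (0.01 ± 0.0461 on the log2 scale, adjusted p = 0.93) and was lower in knockout cells with trametinib, at 27.3, 26.3 and 27.8 with guide 1 and 17.8, 17.0 and 17.9 with guide 2 against 69.5, 68.7 and 67.7 (log2 -1.65 ± 0.0380, adjusted p = 2.0e-36). SEMA3C was higher in knockout cells in DMSO (0.41 ± 0.0303) and lower with trametinib (-0.92 ± 0.0276) and vemurafenib (-0.78 ± 0.0278).

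Of the ephrins, EFNA5 was at means of 16.8, 14.9 and 16.4 CPM in DMSO (-0.10 ± 0.0560 on the log2 scale, adjusted p = 0.12), and higher in knockout cells with vemurafenib, at 7.67, 8.01 and 8.01 with guide 1 and 10.6, 10.1 and 10.1 with guide 2 against 3.32, 4.21 and 3.65 (log2 1.28 ± 0.0691, adjusted p = 2.2e-21). EFNB2 rose with the knockout in DMSO, from 22.7, 22.1 and 22.5 CPM to 36.6, 37.4 and 37.3 with guide 1 and 38.3, 38.9 and 37.4 with guide 2 (log2 0.75 ± 0.0353, adjusted p = 1.1e-23). EFNA3 and EFNA4 were called higher with each drug and not in DMSO.

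**Figure D4:**
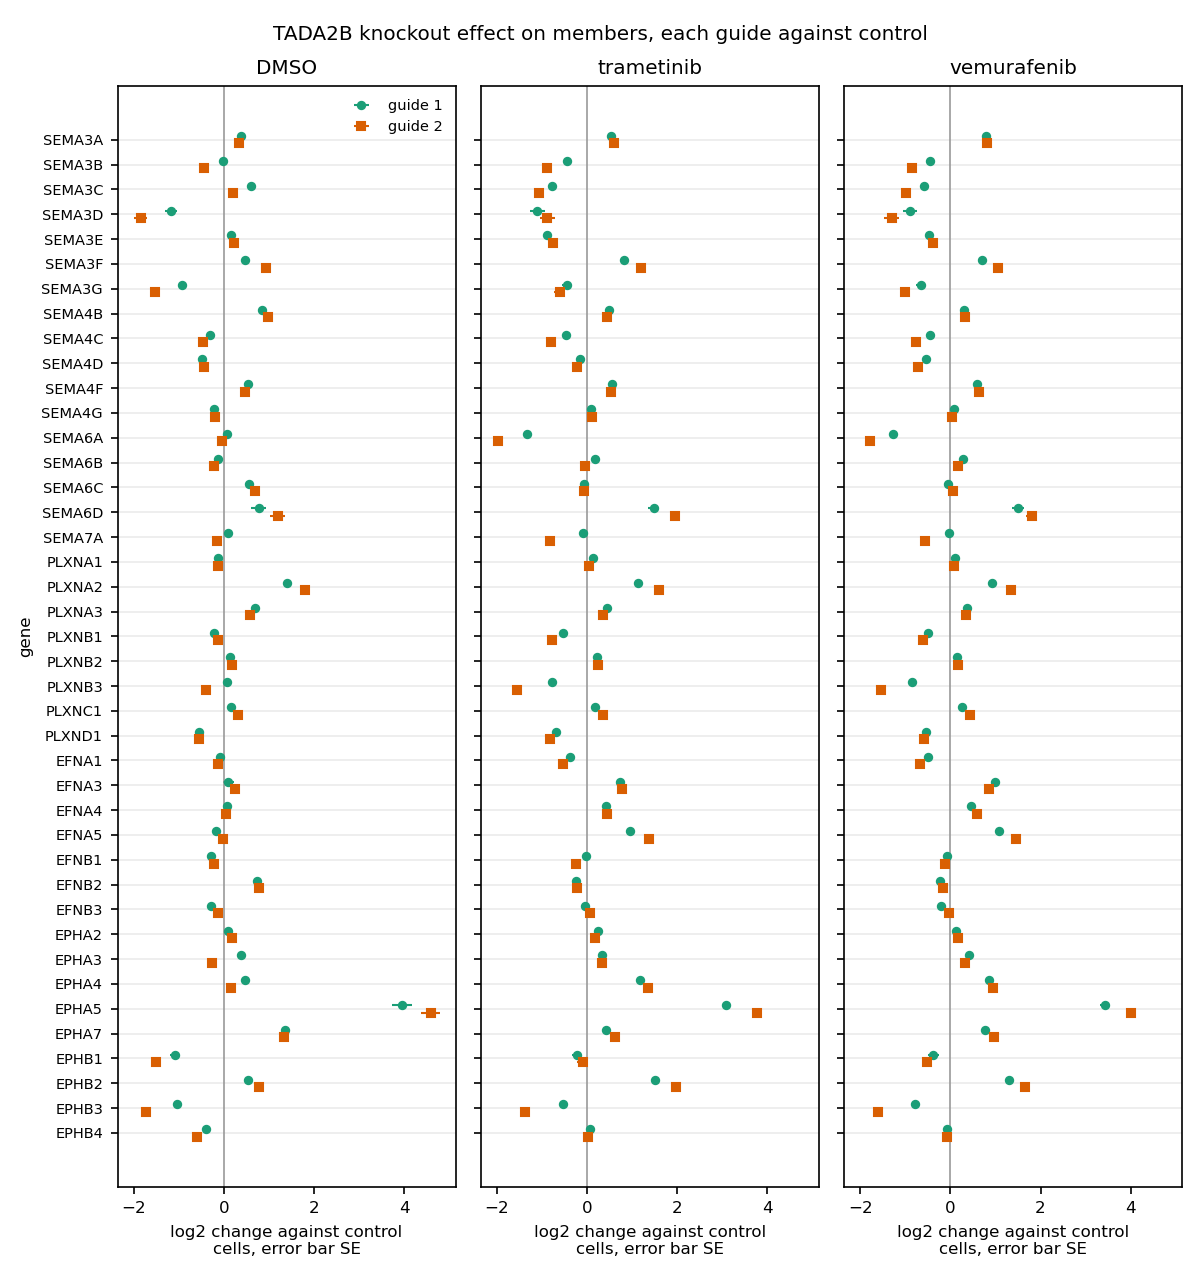
Knockout effect on the 41 members that average at least 1 log2-CPM, in each treatment, as the log2 change of guide 1 (circles) and guide 2 (squares) against control cells, with SE bars. EPHA5 lies farthest right in all panels, and SEMA6A and PLXNB3 lie left of 0 with drug for both guides.

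Markers of other cell types moved with the same comparison. The summed level of 6 fibroblast markers was 16.3 to 17.2 CPM over control libraries in DMSO, 37.2 to 38.2 with guide 1 and 45.3 to 48.6 with guide 2, with 3 of 6 higher and 1 lower. That sum rested on COL1A1 and LUM, and COL1A2 averaged 0.216 CPM in control cells and 0.0395 and 0.0520 with the guides. The 8 melanocyte lineage markers summed to 1000 to 1080 CPM in control cells, 553 to 567 with guide 1 and 344 to 361 with guide 2, with 3 higher and 4 lower. With trametinib their sums were 2240 to 2370, 746 to 767 and 458 to 472 CPM. In control cells most of that rise was DCT, from 0.938 CPM in DMSO to 1050, and with trametinib DCT averaged 103 and 68.0 with the guides. SOX10 averaged 884, 459 and 274 CPM in DMSO and 1050, 510 and 281 with trametinib, in the order control, guide 1, guide 2. PMEL, MLANA, TYR and TYRP1 never exceeded 2.34 CPM. The leukocyte markers summed to 16.9 to 17.3 CPM in control cells in DMSO, 35.0 to 36.5 with guide 1 and 25.5 to 26.1 with guide 2, and the endothelial markers to 16.4 to 16.9, 8.47 to 9.5 and 8.43 to 9.04. Nearly all of the leukocyte sum was LYZ, and CD3E was at or near 0. The keratinocyte markers, chiefly KRT10, summed to 53.4 to 58.5 CPM in control cells in DMSO, 59.5 to 63.6 with guide 1 and 55.0 to 59.8 with guide 2. The part of these shifts in the results on guidance genes was not tested.

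The response to drug itself differed between knockout and control cells for most members. For trametinib the interaction, which is the knockout response minus the control response, was above 0 for 20 members (background 20.8%) and below 0 for 18 (background 23.2%), and for vemurafenib for 16 (background 20.0%) and 17 (background 22.4%). With each guide taken alone, 6 of the 38 and 7 of the 33 were not called in that direction (15.8% and 21.2%, against 26.6% and 25.3% of all genes called). Of Eph receptors 7 of 13 had a positive trametinib interaction and 2 a negative one, and of plexins 1 and 5 of 9.

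Of the genes that drug raised, SEMA6A had the largest negative interaction. Its trametinib response was 5.16-fold in control cells and 1.63-fold in knockout cells (log2 -1.66 ± 0.0604, adjusted p = 1.4e-27), and its guide 1 libraries went from 13.4, 14.5 and 13.7 CPM in DMSO to 27.3, 26.3 and 27.8, and its guide 2 libraries from 13.1, 13.1 and 12.4 to 17.8, 17.0 and 17.9. SEMA3C rose 8.36-fold in control cells and 3.32-fold in knockout cells (log2 -1.33 ± 0.0414, adjusted p = 2.5e-30), from 163, 162 and 159 to 543, 498 and 511 CPM with guide 1 and from 126, 120 and 120 to 432, 411 and 412 with guide 2. It remained the semaphorin with the most CPM in every drug group. PLXNB3 rose 3.80-fold and 1.91-fold (log2 -1 ± 0.0538, adjusted p = 5.3e-20). SEMA3E rose 3.99-fold and 1.97-fold (log2 -1.02 ± 0.0713, adjusted p = 6.2e-17).

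EFNB2 showed the same sign of interaction in another way. In control cells trametinib took it from 22.4 to 46.3 CPM, while guide 1 cells went from 37.1 to 39.2 and guide 2 cells from 38.2 to 39.6 (log2 -0.98 ± 0.0476, adjusted p = 9.0e-23). The knockout groups in DMSO thus lay between control cells in DMSO and control cells with trametinib. For vemurafenib the log2 interactions of these genes were -1.54 ± 0.0610 for SEMA6A, -1.19 ± 0.0415 for SEMA3C, -1.02 ± 0.0539 for PLXNB3, -0.95 ± 0.0480 for EFNB2 and -0.62 ± 0.0713 for SEMA3E, and both interactions share their DMSO libraries.

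Of the genes that drug lowered, EFNA5 had the largest positive interaction. It fell 5.09-fold in control cells and 2.12-fold in knockout cells with trametinib (log2 1.27 ± 0.0899, adjusted p = 1.1e-16), where guide 1 libraries held 5.95, 6.34 and 6.96 CPM and guide 2 libraries 8.26, 8.5 and 8.78. EPHB2 fell 3.69-fold and 1.74-fold (log2 1.09 ± 0.0545, adjusted p = 3.6e-22), and EPHA4 3.67-fold and 1.89-fold (log2 0.95 ± 0.0978, adjusted p = 1.9e-11). EPHB1 fell 3.34-fold and 1.53-fold (log2 1.13 ± 0.132, adjusted p = 5.5e-10), but it started lower in knockout cells, at 4.81 and 3.62 CPM against 10.3. SEMA6D, which rose in control and knockout cells, rose more in knockout cells (log2 0.73 ± 0.194, adjusted p = 0.0015). SEMA6D passed the naming level chiefly through the knockout groups with drug, so its place here depended on the rise ranked. For vemurafenib EFNA5 (1.38 ± 0.0887), EPHB1 (0.85 ± 0.134), EPHB2 (0.83 ± 0.0530), EFNA3 (0.76 ± 0.139) and SEMA6D (0.67 ± 0.193) had the largest positive values among members above the naming level.

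EPHA2 did not follow them. It fell 6.19-fold in control cells and 5.84-fold in knockout cells with trametinib, a log2 difference of 0.08 ± 0.0576 that did not pass the test (adjusted p = 0.26), and the vemurafenib difference was 0.01 ± 0.0563 (adjusted p = 0.90). Its guide 1 libraries held 227, 228 and 227 CPM in DMSO and 38.0, 43.6 and 42.1 with trametinib, and its guide 2 libraries went from 241, 243 and 249 to 40.9, 39.2 and 38.2. PLXNC1 (0.04 ± 0.0978, adjusted p = 0.79) and PLXNB2 (0.08 ± 0.0460, adjusted p = 0.19) also had trametinib interactions that did not pass. A p that misses the threshold does not show equal responses.

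**Figure D5:**
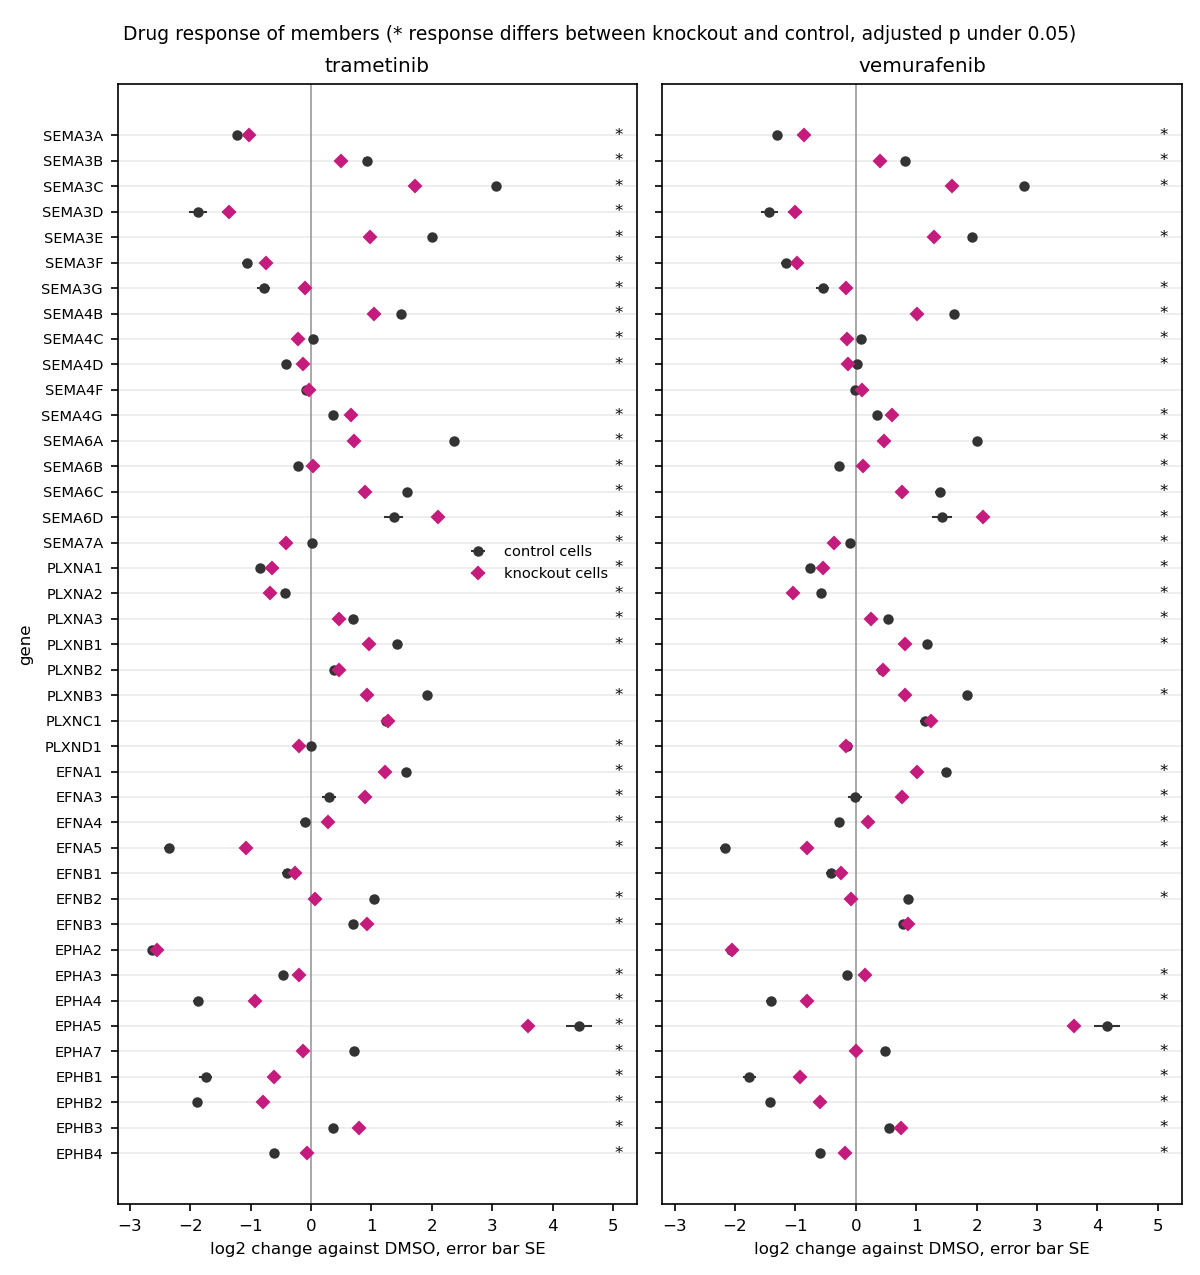
Drug response of the 41 members that average at least 1 log2-CPM, as log2 change against DMSO with SE bars, in control cells (circles) and knockout cells (diamonds); an asterisk marks a called interaction. SEMA3C, SEMA6A and PLXNB3 show wide gaps between the populations, and EPHA2 shows none that was called.

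The guides differed in part of the members. In DMSO 6 members were higher with guide 2 than with guide 1 (background 4.64%) and 13 lower (background 7.29%). With trametinib 8 were higher (background 10.8%) and 11 lower (background 8.91%), and with vemurafenib 8 were higher (background 7.12%) and 11 lower (background 8.85%). The largest differences in DMSO, as log2 of guide 2 minus guide 1, were 0.64 ± 0.115 for EPHA5, 0.46 ± 0.0722 for SEMA3F and 0.40 ± 0.0518 for PLXNA2 on the higher side, and -0.69 ± 0.149 for SEMA3D, -0.68 ± 0.0608 for EPHB3, -0.65 ± 0.0353 for EPHA3 and -0.60 ± 0.118 for SEMA3G on the lower side. EPHA3 held 206, 192 and 203 CPM with guide 1 and 134, 125 and 124 with guide 2 in DMSO, on either side of the control libraries at 152, 151 and 155, so the mean of both guides hides opposite differences. With trametinib the differences were 0.68 ± 0.0671 for EPHA5 and 0.48 ± 0.0413 for EPHB2, and -0.83 ± 0.0543 for EPHB3, -0.77 ± 0.0431 for PLXNB3 and -0.74 ± 0.0442 for SEMA7A. With vemurafenib they were 0.58 ± 0.0675 for EPHA5 and 0.41 ± 0.0563 for PLXNA2, and -0.81 ± 0.0551 for EPHB3, -0.68 ± 0.0436 for PLXNB3 and -0.55 ± 0.0442 for SEMA7A.

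Known ligand and receptor pairs were set side by side. Of SEMA7A and PLXNC1, the receptor rose with trametinib in control cells (1.24 ± 0.0803) and the ligand did not pass the test (0.01 ± 0.0430). Of EFNB2 and EPHB4, the ligand rose (1.05 ± 0.0394) and the receptor fell (-0.61 ± 0.0450), and the same held of EFNA1 (1.58 ± 0.0494) and EPHA2 (-2.63 ± 0.0488). Of SEMA4D and PLXNB1, the ligand fell (-0.41 ± 0.0525) and the receptor rose (1.43 ± 0.0420). Of SEMA3E and PLXND1, the ligand rose (2.00 ± 0.0582) and the receptor did not pass the test (0.00 ± 0.0372). All values are log2 changes, and the pairs were chosen from general knowledge and do not stand for all pairs. EFNA5 and EPHA4, which binds both kinds of ephrin, fell together with trametinib in control cells. Their means went from 16.8 to 3.30 CPM and from 17.9 to 4.87.

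Co-receptors and signalling partners of semaphorins, a list of 30 genes of which 29 were tested, moved in both directions. With trametinib in control cells 15 rose (51.7%, against 36.4% of all genes tested) and 11 fell (37.9%, against 32.5%; median log2 0.23, against 0.06 over all genes), and with vemurafenib 15 rose (51.7%, against 35.7%) and 10 fell (34.5%, against 31.6%). The shares that fell were near those of all genes. CHL1, an adhesion molecule that can join neuropilin, had the largest change, from 0.0551 CPM ± 0.0245 to 5.94 CPM ± 0.346 with trametinib and 6.80 CPM ± 0.375 with vemurafenib (SD, n = 3; log2 6.72 ± 0.292, adjusted p = 1.4e-24 for trametinib), and it reached 1.83 and 0.881 CPM in knockout cells with trametinib (log2 -2.38 ± 0.606, adjusted p = 0.0011 for the interaction). Without drug CHL1 was close to undetected in every population, with means of 0.0839 CPM (guide 1) and 0.0462 CPM (guide 2) after knockout. Its fold and its interaction are therefore imprecise. The average level of CHL1 rests chiefly on the drug groups, so its rank here depended on the rise ranked. RND3, a small G protein, fell from 51.5 to 5.59 CPM in control cells (-3.2 ± 0.0653) and less in knockout cells (-1.27 ± 0.0410). MICAL2, an actin-oxidising enzyme, rose in control cells (2.71 ± 0.0525) and had a trametinib interaction of -2.82 ± 0.0625. Its means went from 25.9 to 35.9 CPM with guide 1 and from 31.6 to 19.5 with guide 2, so that interaction averages opposite responses.

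The co-receptors of class 3 semaphorins behaved differently from each other. In control cells NRP1 averaged 83.8 CPM in DMSO, 130 with trametinib and 143 with vemurafenib. In knockout cells it averaged 283 CPM with guide 1 and 266 with guide 2 in DMSO (log2 1.71 ± 0.0270, adjusted p = 8.9e-43) and fell with trametinib to 116 and 83.2 (log2 -1.48 ± 0.0206, adjusted p = 2.7e-46), so its trametinib response changed sign (log2 -2.11 ± 0.0359, adjusted p = 4.4e-41 for the interaction). NRP2 rose in control cells from 182 CPM to 441 with trametinib and 486 with vemurafenib. It was lower in knockout cells with trametinib, at 272 CPM with guide 1 and 140 with guide 2 (log2 -1.18 ± 0.0226, adjusted p = 1.1e-39). In DMSO 12 genes of this list were higher in knockout cells (41.4%, against 29.3% of all genes) and 10 lower (34.5%, against 28.6%). With trametinib 7 were higher (24.1%, against 27.1%) and 13 lower (44.8%, against 28.8%), and with vemurafenib 5 (17.2%, against 27.3%) and 14 (48.3%, against 28.3%).

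Signalling partners of Eph receptors and ephrins, 29 genes, all tested, moved in both directions. With trametinib in control cells 11 rose (37.9%, against 36.4% of all genes tested) and 13 fell (44.8%, against 32.5%; median log2 -0.04), and in knockout cells in DMSO 9 were higher (31.0%, against 29.3%) and 13 lower (44.8%, against 28.6%; median -0.05, against 0.00 over all genes). The shares that rose or were higher were near those of all genes. SHB, an adaptor protein, fell with trametinib from 12.6 to 1.5 CPM in control cells (-3.07 ± 0.0917) and less in knockout cells (-2.08 ± 0.0543). VAV3, an exchange factor for small G proteins, went from 2.5 to 5.28 CPM in control cells, from 4.59 to 33.6 with guide 1 and from 4.65 to 51 with guide 2 (log2 2.08 ± 0.111, adjusted p = 3.4e-21 for the interaction).

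Other guidance genes, a list of 26 netrin, slit and RGM pathway genes of which 24 were tested, moved in both directions with drug. Trametinib raised 14 (58.3%, against 36.4% of all genes tested) and lowered 8 (33.3%, against 32.5%) in control cells (median log2 0.85, against 0.06 over all genes), and raised 15 (62.5%, against 37.2%) and lowered 6 (25.0%, against 34.3%) in knockout cells. The share lowered in control cells was near that of all genes. NTNG2, a netrin held by a lipid anchor, rose from 3.05 to 28.3 CPM in control cells (3.21 ± 0.0850), with an interaction of -1.40 ± 0.106. ROBO2, a slit receptor, rose from 8.36 to 39.9 CPM (2.26 ± 0.0566), with an interaction of -1.19 ± 0.0694. The netrin receptor UNC5C averaged 6.75 CPM with trametinib in control cells and 24.4 (guide 1) and 38.8 (guide 2) after knockout (log2 2.19 ± 0.0593, adjusted p = 1.6e-33), and UNC5D was higher in knockout cells in DMSO (2.43 ± 0.113), with trametinib (3.2 ± 0.121) and with vemurafenib (2.99 ± 0.110). FLRT1, a membrane protein of the same pathway, was lower in knockout cells in each treatment (-2.36 ± 0.131, -2.47 ± 0.0841 and -2.76 ± 0.0869).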

How the data were processed

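Raw, unnormalised read counts per gene were deposited by the authors as 1 table for all 27 libraries. Per the labels' protocols the libraries were made from polyA RNA with the KAPA stranded mRNA kit, and per the submitters' processing notes bcl2fastq, HISAT2, HTSeq and the hg38 build were used. Those notes name no versions, and for annotation release and strand setting the sources used here give nothing. All 58721 identifiers were found in GENCODE 29, which gave gene types, exon lengths and coordinates.

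Groups came from sample titles and labels. Counts were filtered with filterByExpr in edgeR 4.0.16, which left 25199 genes, scaled with TMM factors (0.866 to 1.09) and tested with edgeR's quasi-likelihood test (robust) on all libraries, 1 mean for each of 9 groups (18 residual degrees of freedom), with Benjamini-Hochberg adjustment over all genes. CPM is the count relative to the library's effective size, the total multiplied by the TMM factor. An error after a log2 change is its standard error, and after a level the SD of 3 libraries. Standard errors and p-values come from spread between libraries within groups. For knockout effects and interactions they leave out spread between guide populations, and the control is a single population. EPHB3 in DMSO, for example, had a knockout effect of -1.39 ± 0.0468, whereas the guides alone gave -1.05 and -1.73. A fold change is relative to most other genes of its library. The knockout effect is the mean of both guides minus control, and the interaction is the knockout response minus the control response. At most 5 rises and 5 falls per comparison were picked, among called members that average at least 1 log2-CPM and whose libraries do not overlap between groups (not asked of interactions; in knockout effects also called with each guide), and at most 4 genes per pathway list. Library pairs of a group differed by more than sampling noise (chi-square per degree of freedom 2.88 to 11.9), so none was counted as a copy. The test was checked on simulated data. DESeq2 1.42.0, limma 3.58.1 (voom), no low-count filter, a replicate block, each guide alone and leaving out each library were the alternatives. The members, lists and naming rule were chosen with earlier results of these data known.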

Additional observations from a re-analysis of the deposited data

Results flagged for a closer look

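The 11 members listed here had a drug response that differed between knockout and control cells. The test was of the difference itself, the interaction in edgeR's quasi-likelihood test. They are the largest shifts picked by the naming rule, at most 5 in each direction for each drug. Of the 48 tested members, 20 were called upward and 18 downward for trametinib (backgrounds 20.8% and 23.2%). For vemurafenib 16 were called upward and 17 downward (backgrounds 20.0% and 22.4%). Values are log2 differences, knockout minus control response, with standard errors and adjusted p, and every difference rests on 3 libraries per group. These errors and p-values do not measure spread between cell populations. For trametinib the members whose response was shifted upward were EFNA5 (1.27 ± 0.0899, adjusted p = 1.1e-16), EPHB1 (1.13 ± 0.132, adjusted p = 5.5e-10), EPHB2 (1.09 ± 0.0545, adjusted p = 3.6e-22), EPHA4 (0.95 ± 0.0978, adjusted p = 1.9e-11) and SEMA6D (0.73 ± 0.194, adjusted p = 0.0015). Those shifted downward were SEMA6A (-1.66 ± 0.0604, adjusted p = 1.4e-27), SEMA3C (-1.33 ± 0.0414, adjusted p = 2.5e-30), SEMA3E (-1.02 ± 0.0713, adjusted p = 6.2e-17), PLXNB3 (-1 ± 0.0538, adjusted p = 5.3e-20) and EFNB2 (-0.98 ± 0.0476, adjusted p = 9e-23).

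For vemurafenib the upward shifts were those of EFNA5 (1.38 ± 0.0887, adjusted p = 4.1e-18), EPHB1 (0.85 ± 0.134, adjusted p = 7.3e-07), EPHB2 (0.83 ± 0.053, adjusted p = 3.5e-18), EFNA3 (0.76 ± 0.139, adjusted p = 9.5e-06) and SEMA6D (0.67 ± 0.193, adjusted p = 0.0036). The downward shifts were those of SEMA6A (-1.54 ± 0.061, adjusted p = 5.4e-26), SEMA3C (-1.19 ± 0.0415, adjusted p = 2.6e-28), PLXNB3 (-1.02 ± 0.0539, adjusted p = 2.7e-20), EFNB2 (-0.95 ± 0.048, adjusted p = 5.9e-22) and SEMA3E (-0.62 ± 0.0713, adjusted p = 3.4e-10). Leaving out replicate 1 of the control DMSO group took the SEMA6D difference with vemurafenib to 0.52 (adjusted p = 0.055), which no longer passed. SEMA6D also passed the naming level chiefly through the knockout groups with drug, so its listing for either drug depended on the shift itself.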

How the results depend on the processing

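The number of members called higher or lower in each of the 14 comparisons stayed within 1.5 times its value in all but 4 cases. For vemurafenib minus trametinib in control cells, members higher went from 8 to 5 without replicate 2 of control cells with vemurafenib, and leaving out single libraries gave 5 to 7. For the same difference in knockout cells, members higher went from 13 to 7 with guide 1 alone, and leaving out single libraries gave 8 to 13, the lowest without replicate 1 of guide 2 with vemurafenib. Members lower there went from 12 to 7 with guide 2 alone. The cause was not tested. None of the member changes picked by the naming rule changed direction in any alternative. EPHA3 was called in opposite directions with guide 1 and guide 2 alone in its DMSO knockout effect (0.39 and -0.26) and in its knockout response to trametinib (-0.52 and 0.12) and to vemurafenib (-0.12 and 0.43), values that the rule did not pick. SEMA3D in vemurafenib minus trametinib in control cells lost its call with DESeq2's Wald test (0.44, adjusted p = 0.10) and without any of 5 single libraries, and SEMA6C there without any of 4. With the replicate block, trametinib in control cells lowered 17 members in place of 18, and no call of a named member changed. Libraries that share a number did not deviate together (108 pairs, correlation -0.0531 to 0.0545), so no shift shared by number was seen. This cannot show whether libraries with the same number were handled together, which the labels do not say. Members with few counts in control cells in DMSO, such as EPHA5, EPHB6 and PLXNA4, have folds limited by depth.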
